A study of Mus musculus with 16 samples.

Results

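The genes described here make up the Nodal branch of TGF-beta family signalling. They are the ligands Nodal and Gdf3, the secreted inhibitors Lefty1, Lefty2 and Cer1, the coreceptor Tdgf1 (Cripto), the receptors Acvr1b and Acvr2b, the signal transducer Smad2 and the transcription factor Foxh1. The members were chosen by name, as every probe set whose annotation gives 1 of these symbols and no other. All 10 genes were found, on 19 of the 45037 probe sets tested. For comparison, 34945 of those probe sets carry a single symbol and stand for 18193 genes.

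Nodal acts through activin receptors and needs a coreceptor of the EGF-CFC family, such as Tdgf1, to bind them. The activated receptors phosphorylate Smad2 and Smad3, which enter the nucleus with Smad4 and reach their target genes with partners such as Foxh1. Nodal and the Lefty genes are themselves targets, and the Lefty proteins and Cer1 block the ligand outside the cell. In the mouse embryo this signal maintains the epiblast and is needed for the primitive streak, the source of the mesoderm that gives rise to blood and vessels, and several of the genes are also well known in undifferentiated embryonic stem (ES) cells.

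The cells came from CCE, an established line of mouse ES cells kept on irradiated fibroblasts, which formed embryoid bodies once leukemia inhibitory factor (LIF) was withdrawn. Embryoid body cells were fixed, stained and sorted by flow cytometry, and no treatment or genetic change set the groups apart. The 8 populations came from 4 sorts, each giving marker-positive and marker-negative cells: for VEGF-R2 at day 2.5, for CD41 at day 3.5, and for CD144 (VE-cadherin) at day 3.5 and again at day 6.5. The study treats the positive populations, in this order, as hemangioblasts, hematopoietic progenitors, angioblasts and endothelial cells. A negative population held cells sorted as lacking the marker on that day and is not a lineage of its own. The sample labels name only the sorting marker. The paper also writes the CD41 negative cells as negative for VEGF-R2, and the CD41 and CD144 positive cells as positive for it. The negative populations may therefore not be comparable with one another. Each population was measured on 2 Affymetrix arrays with RNA from separately conducted experiments, so p-values measure the spread between repeats with 1 cell line.

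The values are MAS5 signals, in arbitrary units on a linear scale, and their median over all probe sets and arrays was 85.8. Levels are compared only within a gene, since probe sets of different genes bind with different strength. Kdr, Itga2b and Cdh5, which encode VEGF-R2, CD41 and CD144, were each higher in the positive cells of their own sort. Kdr still gave 2088 and 2077 in VEGF-R2 negative cells. At day 3.5 it gave 53.5 and 95.12 in CD41 negative cells, against 1001 and 739.9 in CD144 negative cells. Labelled control transcripts added at hybridisation were brighter on the 8 positive arrays, where their geometric mean ran from 6481 to 11180, than on the 8 negative ones, with 2134 to 3022. The sort and this difference between the sets of arrays cannot be told apart in the same-day comparisons. The 3' to 5' signal ratio of the Gapdh control was 0.883 to 1.06 on the positive and 0.816 to 0.969 on the negative arrays. The Spearman correlation within a pair of arrays was 0.872 to 0.895 for positive and 0.945 to 0.955 for negative populations. The samples are bulk RNA, in which fewer cells of a type and less RNA per cell cannot be told apart.

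Promoter sequences from RefSeq on GRCm38.p6, 250 bases before and 50 bases after the gene's start, were at hand for 5 of the genes. The first 3 below belong to members whose signal differed several-fold between populations, and Acvr1b, which stayed nearly level, is shown beside them. Each is written 5′ to 3′ on the gene's own strand, with every CG pair in capitals.
Nodal, chr10:61417722-61418021, plus strand: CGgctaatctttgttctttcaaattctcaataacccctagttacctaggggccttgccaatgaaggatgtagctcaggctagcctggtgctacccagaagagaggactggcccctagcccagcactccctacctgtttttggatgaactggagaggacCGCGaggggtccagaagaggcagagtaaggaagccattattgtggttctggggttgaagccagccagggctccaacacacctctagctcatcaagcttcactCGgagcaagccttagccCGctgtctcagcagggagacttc
Tdgf1, chr9:110946109-110946408, minus strand: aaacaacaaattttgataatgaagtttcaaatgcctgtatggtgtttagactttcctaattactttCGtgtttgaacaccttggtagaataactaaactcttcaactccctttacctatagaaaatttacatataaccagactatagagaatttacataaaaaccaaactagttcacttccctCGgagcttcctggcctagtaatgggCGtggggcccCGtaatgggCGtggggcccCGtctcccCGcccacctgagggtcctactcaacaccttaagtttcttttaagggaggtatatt
Cer1, chr4:82885102-82885401, minus strand: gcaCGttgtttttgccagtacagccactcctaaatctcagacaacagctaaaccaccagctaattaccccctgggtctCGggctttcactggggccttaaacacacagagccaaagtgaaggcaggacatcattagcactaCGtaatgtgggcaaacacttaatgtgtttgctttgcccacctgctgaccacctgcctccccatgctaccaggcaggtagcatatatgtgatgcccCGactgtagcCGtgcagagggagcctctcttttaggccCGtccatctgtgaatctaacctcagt
Acvr1b, chr15:101173822-101174121, plus strand: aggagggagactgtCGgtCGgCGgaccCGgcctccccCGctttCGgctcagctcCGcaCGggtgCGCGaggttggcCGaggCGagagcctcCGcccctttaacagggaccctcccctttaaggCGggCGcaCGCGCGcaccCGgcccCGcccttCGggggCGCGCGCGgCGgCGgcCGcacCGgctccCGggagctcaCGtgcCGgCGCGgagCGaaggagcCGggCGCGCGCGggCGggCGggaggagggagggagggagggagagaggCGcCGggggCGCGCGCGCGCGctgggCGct

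The promoters differ in base composition. That of Nodal holds 5 CG pairs in its 300 bases, that of Cer1 holds 6 and that of Tdgf1 holds 7, which is also the median over 32851 mouse promoters of this length. The Acvr1b promoter holds 51 CG pairs and that of Acvr2b holds 27. G and C made up 54% of the Nodal, 51.7% of the Cer1 and 41.7% of the Tdgf1 promoter, against 79.7% for Acvr1b and 73.3% for Acvr2b, with a median of 52.7%. With 5 promoters this is a description of these sequences.

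Motifs of the factors of this pathway were searched on both strands. The FOXH1 motif TGTGNATT was in none of the 5 windows and is in 3.6% of all promoters. The short SMAD box CAGAC, which is in 49.6% of all promoters, occurred at position -213 of Cer1, at -113 of Tdgf1 and, on the opposite strand, at -233 of Acvr2b, counted from the start of the gene. The TCF/LEF motif CTTTGAT (3.73% of promoters) and the OCT motif ATTTGCAT (1.74%) were in none of the 5. A match is only a match of letters, and distal enhancers were not searched.

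Nodal, the ligand that gives the pathway its name, was low in every positive population and high in every negative one. Its signals were 378.4 and 496.4 in VEGF-R2 positive cells, 272.1 and 421.6 in CD41 positive cells, 1128 and 1173 in day 3.5 CD144 positive cells, and 363.5 and 384.6 in day 6.5 CD144 positive cells. In the negative cells of the same sorts they were 2599 and 2951, 4149 and 4098, 3173 and 3337, and 1797 and 2837. No positive array reached the lowest negative one, and among the positive populations only the day 3.5 CD144 positive cells stood above the others. Ordered by level, CD41 negative cells came first, then day 3.5 CD144 negative cells, and then VEGF-R2 negative cells and day 6.5 CD144 negative cells, whose arrays overlapped. day 3.5 CD144 positive cells followed, and the arrays of VEGF-R2 positive cells and of CD41 positive cells overlapped below them, with day 6.5 CD144 positive cells inside the range of the CD41 pair.

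The fold for Nodal was 6.32 at day 2.5 (log2 fold change -2.66, standard error 0.21, adjusted p = 2.7e-07), positive against negative. It was 12 for CD41 (log2 fold change -3.58, adjusted p = 2.7e-09). For CD144 it was 2.82 at day 3.5 (log2 fold change -1.49, adjusted p = 0.000102) and 5.96 at day 6.5 (log2 fold change -2.58, adjusted p = 4.11e-07). Between positive populations, Nodal was 2.63-fold higher in day 3.5 CD144 positive cells than in VEGF-R2 positive cells (adjusted p = 0.000591) and 3.35-fold higher than in CD41 positive cells (adjusted p = 3.86e-05). Its second probe set was lower in all 4 positive populations too, with folds of 5.34, 10.7, 3.26 and 2.5. On that probe set the difference between day 3.5 CD144 positive cells and VEGF-R2 positive cells, 1.74-fold, did not pass the test (adjusted p = 0.203), while the one against CD41 positive cells, 2.7-fold, did (adjusted p = 0.0152).

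Gdf3, a ligand of the same receptors, was low in the first 2 positive populations and rose in CD144 positive cells. Its signals were 169.1 and 160.3 in VEGF-R2 positive cells, 182.8 and 196.6 in CD41 positive cells, 724.2 and 813.2 in day 3.5 CD144 positive cells, and 618.1 and 377.7 at day 6.5. The negative cells had 1763 and 1727, 1524 and 1713, 392.9 and 533.5, and 504.5 and 404. VEGF-R2 and CD41 positive cells lay well below their negative cells, day 3.5 CD144 positive cells lay above theirs, and at day 6.5 the arrays overlapped.

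Gdf3 was 10.3-fold lower in VEGF-R2 positive than negative cells (log2 fold change -3.36, standard error 0.22, adjusted p = 3.91e-08) and 8.29-fold lower for CD41 (adjusted p = 2.75e-08). It was 1.67-fold higher in CD144 positive than negative cells at day 3.5 (adjusted p = 0.0265). That last call was lost on the second probe set, where the log2 fold change was 0.20 (adjusted p = 0.808), and without 1 array: CD144 positive replicate 1 (adjusted p = 0.0572) or 2 (adjusted p = 0.148), or CD144 negative replicate 1 (adjusted p = 0.27). From VEGF-R2 positive cells it rose 4.53-fold in day 3.5 CD144 positive cells (adjusted p = 1.23e-05) and 2.87-fold at day 6.5 (adjusted p = 0.000158), and the second probe set gave rises of 6.99-fold and 3.5-fold. In negative cells Gdf3 fell 3.77-fold from day 2.5 to day 3.5 CD144 negative cells (adjusted p = 3.52e-05) and 3.83-fold to those at day 6.5 (adjusted p = 2.83e-05).

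Lefty1, an inhibitor that is also a target of the pathway, followed Nodal closely. Its signals were 450.1 and 505.6 in VEGF-R2 positive cells, 237.8 and 249.3 in CD41 positive cells, 1160 and 801.4 in day 3.5 CD144 positive cells, and 784.8 and 481.9 at day 6.5. The negative cells had 5464 and 5848, 6912 and 6697, 4598 and 4680, and 5036 and 4746. Every negative array was above every positive one, and the CD41 positive arrays were the lowest.

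Lefty1 was 11.7-fold lower in VEGF-R2 positive than negative cells (log2 fold change -3.55, standard error 0.20, adjusted p = 7.24e-09). The fold was 27.3 for CD41 (log2 fold change -4.77, adjusted p = 3.37e-11), 4.79 for CD144 at day 3.5 (adjusted p = 7.43e-07) and 7.88 at day 6.5 (adjusted p = 3.61e-08). Among positive populations it fell 1.94-fold from VEGF-R2 to CD41 positive cells (adjusted p = 0.00407) and rose 2.01-fold to day 3.5 CD144 positive cells (adjusted p = 0.00391). Both changes missed the threshold in a fit with a robust prior without trend (adjusted p = 0.0591 and 0.0623). They also did in a fit of the positive arrays alone, which was chosen after seeing the data (adjusted p = 0.0551 and 0.0588). The fall missed it with only the compared groups as well (adjusted p = 0.107). Without CD144 positive replicate 1 the log2 fold change of the rise was 0.741.

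Lefty2, the second Lefty inhibitor and likewise a target, did not differ by sort at day 2.5 but did in each later sort. Its signals were 1841 and 1220 in VEGF-R2 positive and 1323 and 1426 in VEGF-R2 negative cells, and the positive pair spanned the negative one. At day 3.5 they were 103.1 and 118 in CD41 positive against 2393 and 2732 in CD41 negative cells, and 506.5 and 491.4 in CD144 positive against 2663 and 2774 in CD144 negative cells. At day 6.5 they were 189.2 and 154.5 against 2332 and 2636. The later positive and negative arrays were far apart.

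The day 2.5 difference of Lefty2 was 1.09-fold (log2 fold change 0.13, 95% interval -0.26 to 0.52, adjusted p = 0.679). It was 22-fold lower in CD41 positive than negative cells (log2 fold change -4.46, standard error 0.18, adjusted p = 3.88e-11), 5.39-fold lower for CD144 at day 3.5 (adjusted p = 1.83e-07) and 14-fold lower at day 6.5 (adjusted p = 1.28e-09). From VEGF-R2 positive cells it fell 12.9-fold to CD41 positive cells (adjusted p = 1.28e-09), 2.98-fold to day 3.5 CD144 positive cells (adjusted p = 4.79e-05) and 8.5-fold to those at day 6.5 (adjusted p = 1.37e-08). The Lefty1 and Lefty2 sequences are related, and cross-hybridisation between their probe sets was not tested.

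Cer1, a secreted antagonist made by anterior endoderm in the embryo, changed most in the negative cells. Its signals there were 108.3 and 68.93 in VEGF-R2 negative cells, 463.9 and 498.3 in CD41 negative cells, 1405 and 1619 in day 3.5 CD144 negative cells, and 2240 and 2595 at day 6.5. In the positive cells they were 271.3 and 424.7, 393.8 and 393.9, 425.7 and 295.8, and 140.4 and 150.9. On this brighter probe set the negative populations did not overlap one another and stood in the order of that list, while the 3 earlier positive populations overlapped and the day 6.5 CD144 positive cells lay below them. On the second probe set the CD144 negative populations overlapped, with 902 and 974.4 at day 3.5 and 1239 and 695.9 at day 6.5.

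Cer1 was 3.73-fold higher in VEGF-R2 positive than negative cells (log2 fold change 1.90, standard error 0.25, adjusted p = 3.47e-05). It was 4.2-fold lower in CD144 positive than negative cells at day 3.5 (adjusted p = 2.4e-05) and 15.9-fold lower at day 6.5 (adjusted p = 1.98e-08), and the CD41 difference of 1.22-fold did not pass the test (adjusted p = 0.442). In negative cells it rose 5.26-fold from day 2.5 to CD41 negative cells (adjusted p = 3.06e-05), 16.4-fold to day 3.5 CD144 negative cells (adjusted p = 5.38e-08) and 26.1-fold to those at day 6.5 (adjusted p = 5.06e-09). Its second probe set passed the test in the same direction in the day 2.5 and day 6.5 sorts and in all 3 changes of the negative cells. There the CD144 difference at day 3.5 was 1.86-fold (adjusted p = 0.125), and CD144 positive cells of that day, at 446.3 and 561.4, were 2.5-fold above VEGF-R2 positive cells (adjusted p = 0.0494) and 2.6-fold above CD41 positive cells (adjusted p = 0.0349). On the brighter probe set Cer1 fell 2.28-fold from VEGF-R2 positive cells to day 6.5 CD144 positive cells (adjusted p = 0.00335), while the second probe set did not pass. The call was also lost without VEGF-R2 positive replicate 2, where the log2 fold change was -0.87.

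Tdgf1, the coreceptor that Nodal requires, was high in VEGF-R2 positive cells and in all negative cells. Its signals were 17375 and 13337 in VEGF-R2 positive cells, 1314 and 2862 in CD41 positive cells, 5550 and 6242 in day 3.5 CD144 positive cells, and 1333 and 1247 at day 6.5. The negative cells had 10790 and 11368, 15438 and 15591, 16677 and 17813, and 10439 and 10338. The positive populations after day 2.5 were all below the lowest negative array, and the CD41 positive pair was spread widely.

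Tdgf1 fell 7.83-fold from VEGF-R2 to CD41 positive cells (log2 fold change -2.97, standard error 0.23, adjusted p = 3.71e-07), 2.58-fold to day 3.5 CD144 positive cells (adjusted p = 0.00154) and 11.8-fold to those at day 6.5 (adjusted p = 4.75e-08). Against the negative cells of the same sort it was 7.98-fold lower for CD41 (adjusted p = 5.95e-08), 2.93-fold lower for CD144 at day 3.5 (adjusted p = 0.000172) and 8.03-fold lower at day 6.5 (adjusted p = 2.3e-07). At day 2.5 the positive cells had 1.37 times the negative level, which did not pass the test (adjusted p = 0.175). That fit pools the spread of all 8 populations, including the wide CD41 positive pair. The rise from VEGF-R2 negative to day 3.5 CD144 negative cells, 0.64 on the log2 scale, did not pass in it either. It did with only the compared groups (adjusted p = 0.000765) and in a fit of the negative arrays alone, chosen after seeing the data (adjusted p = 0.00214).

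**Figure D1:**
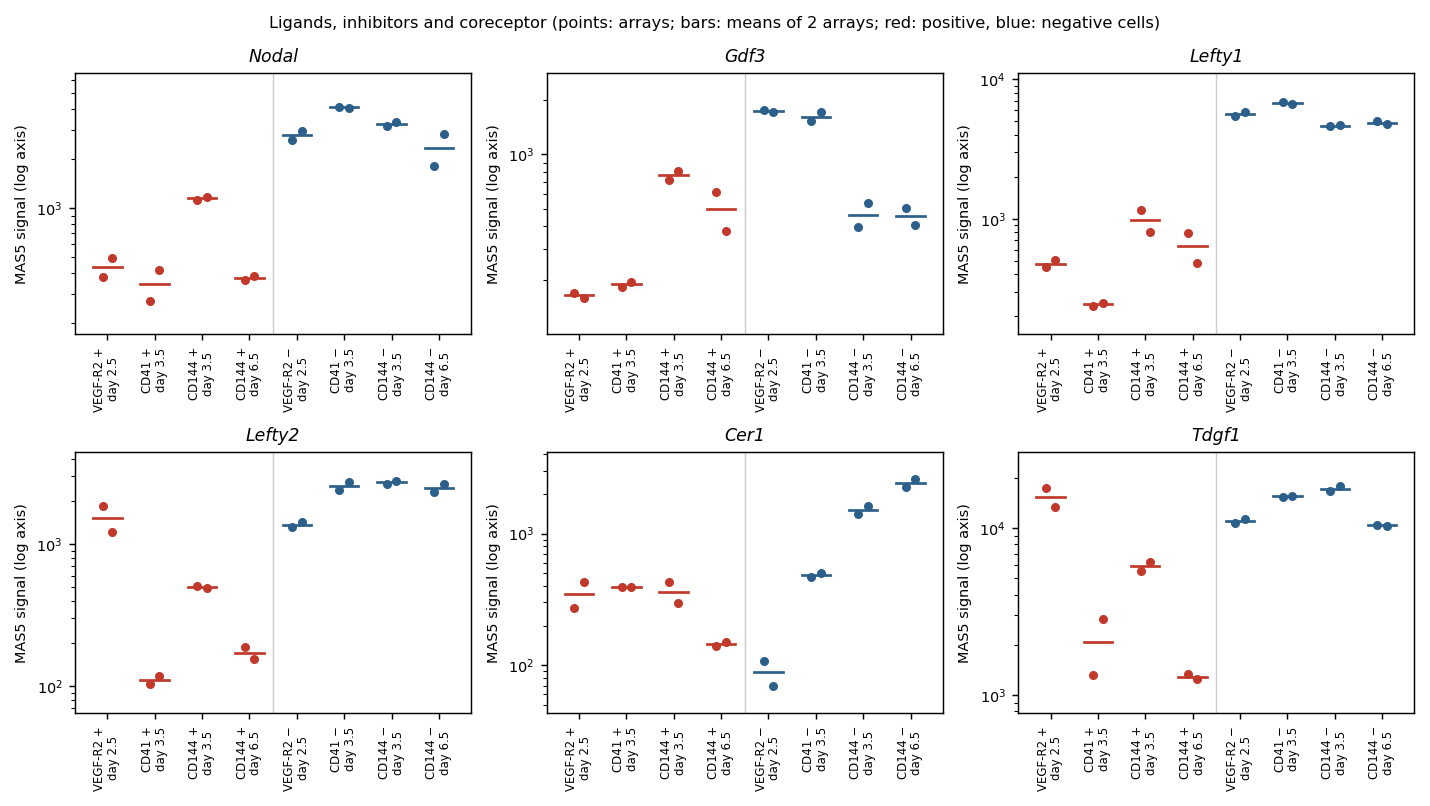
MAS5 signals (log axis, arbitrary units) of Nodal, Gdf3, Lefty1, Lefty2, Cer1 and Tdgf1 in the 8 populations, with points for single arrays, bars for means of 2 arrays, red for positive and blue for negative cells. Nodal and Lefty1 were lower on every positive than on every negative array, Lefty2 and Tdgf1 were still high in VEGF-R2 positive cells, and Cer1, on the probe set shown, stood highest in day 6.5 CD144 negative cells.

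The receptors and Smad2 varied little. Acvr1b, a type I receptor, ranged from 1500 to 2221 over the 8 positive arrays and from 1322 to 2273 over the 8 negative ones. Acvr2b, a type II receptor, ranged from 923.1 to 1866 and from 1233 to 2020. Smad2 ranged from 647.5 to 1108 and from 709.3 to 1153, so for all 3 genes the positive and negative ranges largely overlapped.

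Only 2 differences between populations passed the test for these 3 genes. Acvr1b had 2109 and 2161 in CD41 positive against 1322 and 1390 in CD41 negative cells, a 1.57-fold difference (adjusted p = 0.00405). Its second probe set, at mean signals of 12.52 to 105 per population, gave 2.48-fold (adjusted p = 0.291). Acvr2b had 1866 and 1708 in CD144 positive against 923.1 and 1264 in CD41 positive cells, a 1.65-fold difference (adjusted p = 0.0296), which missed the threshold without CD41 positive replicate 1 (adjusted p = 0.262) or either CD144 positive array (adjusted p = 0.133 and 0.0905). On the Acvr2b probe set of largest variance the log2 fold change between these cells was 0.228 (adjusted p = 0.91). For Smad2 at day 6.5 the brighter probe set gave a log2 fold change of 0.16 (adjusted p = 0.647) and the other one -0.81 (adjusted p = 0.0484), so the direction depended on the probe set.

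Foxh1, the DNA-binding partner of Smad2, behaved unlike the ligands: it was higher in the early positive cells and fell with time. Its signals were 5078 and 3710 in VEGF-R2 positive cells, 2037 and 2314 in CD41 positive cells, 1932 and 2083 in day 3.5 CD144 positive cells, and 796.9 and 618.1 at day 6.5. The negative cells had 1431 and 1306, 828 and 759.6, 1369 and 1404, and 1007 and 1048. At days 2.5 and 3.5 the positive arrays were above the negative arrays of their sort, and at day 6.5 they were below them.

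Foxh1 was 3.17-fold higher in VEGF-R2 positive than negative cells (log2 fold change 1.66, standard error 0.16, adjusted p = 2.11e-06) and 2.72-fold higher for CD41 (adjusted p = 3.65e-06). From VEGF-R2 positive cells it fell 2-fold to CD41 positive cells (adjusted p = 0.00063), 2.16-fold to day 3.5 CD144 positive cells (adjusted p = 0.00041) and 6.14-fold to those at day 6.5 (adjusted p = 2.23e-08). All 3 of its probe sets passed the test in these 5 comparisons, in the same direction. The CD144 differences were small, 1.45-fold higher at day 3.5 (adjusted p = 0.0289) and 1.46-fold lower at day 6.5 (adjusted p = 0.0254). The first was lost without any 1 of the 4 arrays compared (adjusted p = 0.0624 to 0.148), and the second without CD144 positive replicate 2 (adjusted p = 0.231), CD144 negative replicate 1 (adjusted p = 0.0692) or CD144 negative replicate 2 (adjusted p = 0.103). On the Foxh1 probe set of largest variance the CD144 log2 fold changes were 0.34 at day 3.5 (adjusted p = 0.443) and -0.39 at day 6.5 (adjusted p = 0.371). The brightest probe set, shown here, has the suffix that Affymetrix gives to sets which may match several transcripts.

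**Figure D2:**
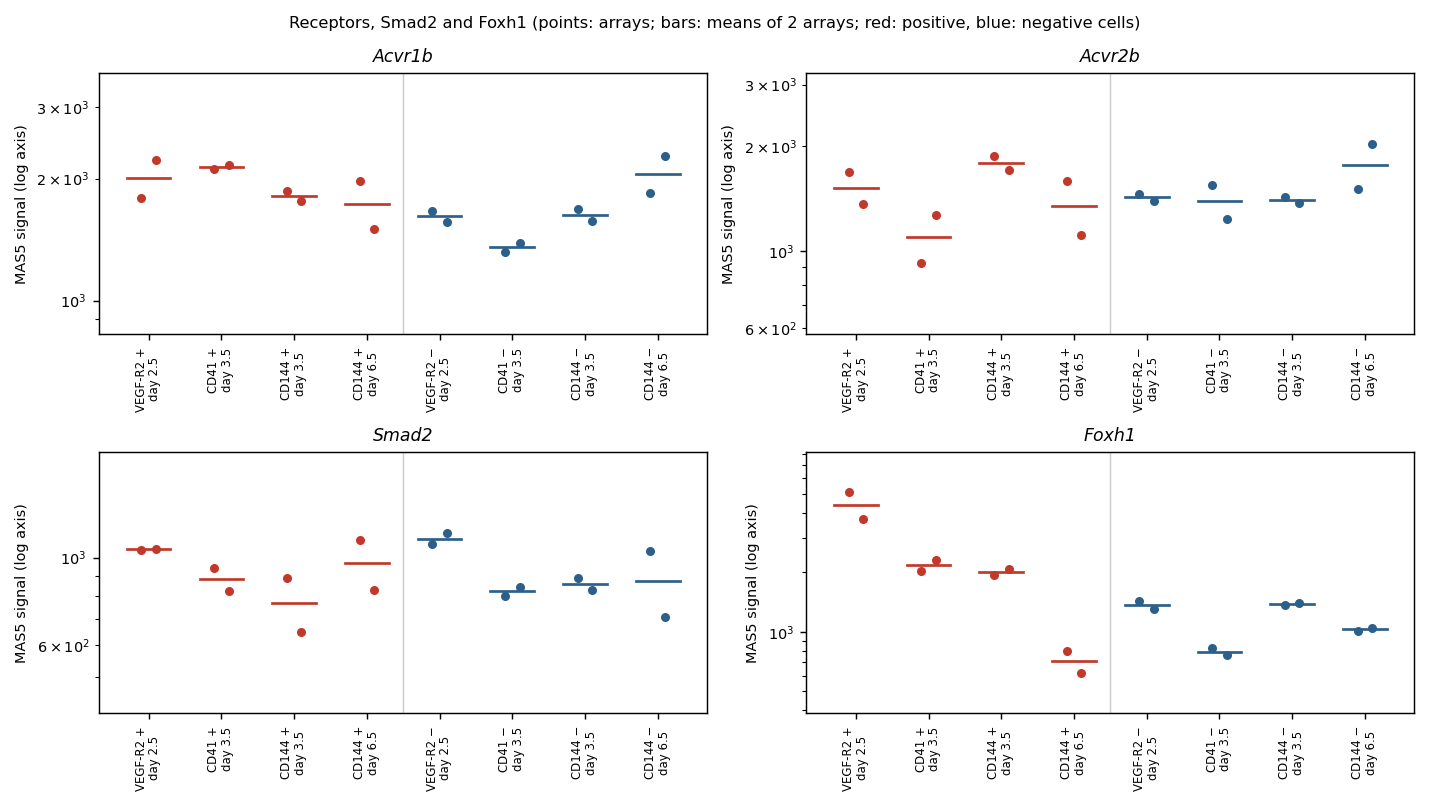
MAS5 signals (log axis, arbitrary units) of Acvr1b, Acvr2b, Smad2 and Foxh1 in the 8 populations, with points for single arrays, bars for means of 2 arrays, red for positive and blue for negative cells. The first 3 genes stay within a narrow range, while Foxh1 runs from 5078 in VEGF-R2 positive cells to 618.1 in day 6.5 CD144 positive cells.

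The first question was how the marker-positive cells of a day differ from the marker-negative cells of the same sort. At day 2.5, Nodal, Gdf3 and Lefty1 were lower and Cer1 and Foxh1 higher in VEGF-R2 positive cells. That is 3 of 10 genes lower and 2 higher, where 13.8% of all probe sets tested were called lower and 11.1% higher. For CD41 at day 3.5, Nodal, Gdf3, Lefty1, Lefty2 and Tdgf1 were lower and Acvr1b and Foxh1 higher, 5 and 2 of 10 against 15.8% and 13.5%. For CD144 at day 3.5, Nodal, Lefty1, Lefty2, Cer1 and Tdgf1 were lower and Gdf3 and Foxh1 higher, 5 and 2 of 10 against 10.5% and 9.49%. At day 6.5, Nodal, Lefty1, Lefty2, Cer1, Tdgf1 and Foxh1 were lower and none higher, 6 and 0 of 10 against 10.1% and 9.42%. The median log2 fold change of the 10 genes was 0.11, -1.67, -0.84 and -1.56 in these 4 sorts, beside 0.08, 0.10, 0.10 and 0.07 over all probe sets.

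Markers of undifferentiated ES cells, of which 14 were measured, moved with several of these results. In VEGF-R2 positive cells 12 of the 14 were lower than in the negative cells and in CD41 positive cells all 14 were. At day 3.5, 7 were higher and 1 lower in CD144 positive cells, and at day 6.5, 2 were higher and 5 lower. Over all probe sets, 11.1% were higher and 13.8% lower in the VEGF-R2 sort, and 13.5% and 15.8% for CD41. For CD144 the shares were 9.49% and 10.5% at day 3.5, and 9.42% and 10.1% at day 6.5. The summed signal of the 14 markers was 17361 and 18685 in VEGF-R2 positive against 70819 and 71341 in VEGF-R2 negative cells, and 4124 and 10528 in CD41 positive against 85279 and 85925 in CD41 negative cells. For CD144 it was 54881 and 59979 against 39598 and 39115 at day 3.5, and 27986 and 31544 against 42968 and 43166 at day 6.5. Bright genes weigh most in such a sum, and Dppa5a alone had 17894 and 21273 in day 3.5 CD144 positive cells. Tcl1 had a mean signal of 38.87 in the VEGF-R2 positive population, below the median of 85.8 over all probe sets and arrays. The CD41 positive population had Tcl1 at 35.22 and Dppa2 at 58.73, also below it. In every other population the mean of each of the 14 was above that median. The 1 marker that was lower in the day 3.5 CD144 positive cells, as Nodal and Lefty1 were, was the ES cell factor Nanog, with 3103 and 3279 against 9794 and 9577 (log2 fold change -1.60, adjusted p = 0.000162). Dppa3, also known as Stella, had the largest difference of the 7 that were higher (log2 fold change 2.30, adjusted p = 4.87e-05), and Pou5f1, which encodes Oct4, did not pass the test (log2 fold change 0.97, adjusted p = 0.135). The part of remaining ES cells in these results was not tested.

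The CD41 positive replicates differed in these markers, with Pou5f1 at 464.3 in replicate 1 and 2200 in replicate 2. Without replicate 2 the CD41 comparison with negative cells still called 5 of the 10 genes lower and 2 higher, and the comparison with VEGF-R2 positive cells 4 lower. Without replicate 2 the log2 fold change of Tdgf1 against CD41 negative cells was -3.56, and without replicate 1 it was -2.44. For Nodal these values were -3.89 and -3.27.

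The second question was how the genes change between the positive populations. CD41 positive cells had less Lefty1, Lefty2, Tdgf1 and Foxh1 than VEGF-R2 positive cells, 4 of 10 genes lower and 0 higher, where 4.82% of all probe sets were lower and 5.02% higher. day 3.5 CD144 positive cells had more Nodal, Gdf3 and Lefty1 and less Lefty2, Tdgf1 and Foxh1, 3 higher and 3 lower against 4.87% and 2.84%. day 6.5 CD144 positive cells had more Gdf3 and less Lefty2, Cer1, Tdgf1 and Foxh1, 1 higher and 4 lower against 9.40% and 6.11%. The second Cer1 probe set did not pass the test there. The 3 comparisons share the VEGF-R2 positive arrays, and in each the day and the sorting marker differ together. The median log2 fold changes of the 10 genes were -0.42, -0.04 and -0.21, and over all probe sets 0.06, 0.05 and 0.11. Quantile normalization moved the last of these to -0.04.

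CD144 and CD41 positive cells of day 3.5 differed in 6 of the 10 genes, all higher in the CD144 positive cells. These were Nodal, Gdf3, Lefty1, Lefty2, Tdgf1 and Acvr2b, against 6.06% of all probe sets higher and 3.72% lower. Acvr2b did not pass on its probe set of largest variance. Lefty2 was 4.34-fold higher (adjusted p = 1.36e-06), Gdf3 3.95-fold (adjusted p = 1.58e-05), Lefty1 3.89-fold (adjusted p = 4.69e-06) and Tdgf1 3.03-fold (adjusted p = 0.000232). Cer1 and Foxh1 had log2 fold changes of -0.15 and -0.11, with adjusted p = 0.797 and 0.748. All 14 ES cell markers were also higher in the CD144 positive cells of that day than in the CD41 positive cells, and 11 of them without CD41 positive replicate 1. Their part in this difference was not tested.

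In each later negative population Cer1 and Lefty2 were higher than in VEGF-R2 negative cells of day 2.5, and Gdf3 or Foxh1 was lower. Lefty2 did not rise further after day 3.5, with means of 2562 in CD41 negative, 2718 in day 3.5 CD144 negative and 2484 in day 6.5 CD144 negative cells. The later populations also come from other sorts, so day and sort cannot be told apart. From day 2.5 to CD41 negative cells Lefty2 and Cer1 rose and Foxh1 fell, 2 and 1 of 10 genes against 1.57% and 1.89% of all probe sets. To day 3.5 CD144 negative cells Lefty2 and Cer1 rose and Gdf3 fell, against 3.90% and 3.24%, and the same 3 genes changed likewise to those at day 6.5, against 5.05% and 3.72%. Lefty2 rose 1.86-fold (adjusted p = 0.0102), 1.97-fold (adjusted p = 0.0026) and 1.8-fold (adjusted p = 0.0068). On the Foxh1 probe set of largest variance the fall to CD41 negative cells was -0.60 on the log2 scale (adjusted p = 0.351). The CD41 negative rise of Lefty2 and the 1.72-fold fall of Foxh1 (adjusted p = 0.0112) each missed the threshold without any 1 of the 4 arrays compared (adjusted p = 0.0553 to 0.146 and 0.0655 to 0.161). The day 6.5 rise of Lefty2 missed it without VEGF-R2 negative replicate 1 (adjusted p = 0.0874) or CD144 negative replicate 2 (adjusted p = 0.0705). Nodal and Lefty1 did not pass the test in any of the 3, with log2 fold changes of -0.29 to 0.57 and of -0.28 to 0.27, although the second Nodal probe set was 2.3-fold lower in day 6.5 CD144 negative cells (adjusted p = 0.0437).

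**Figure D3:**
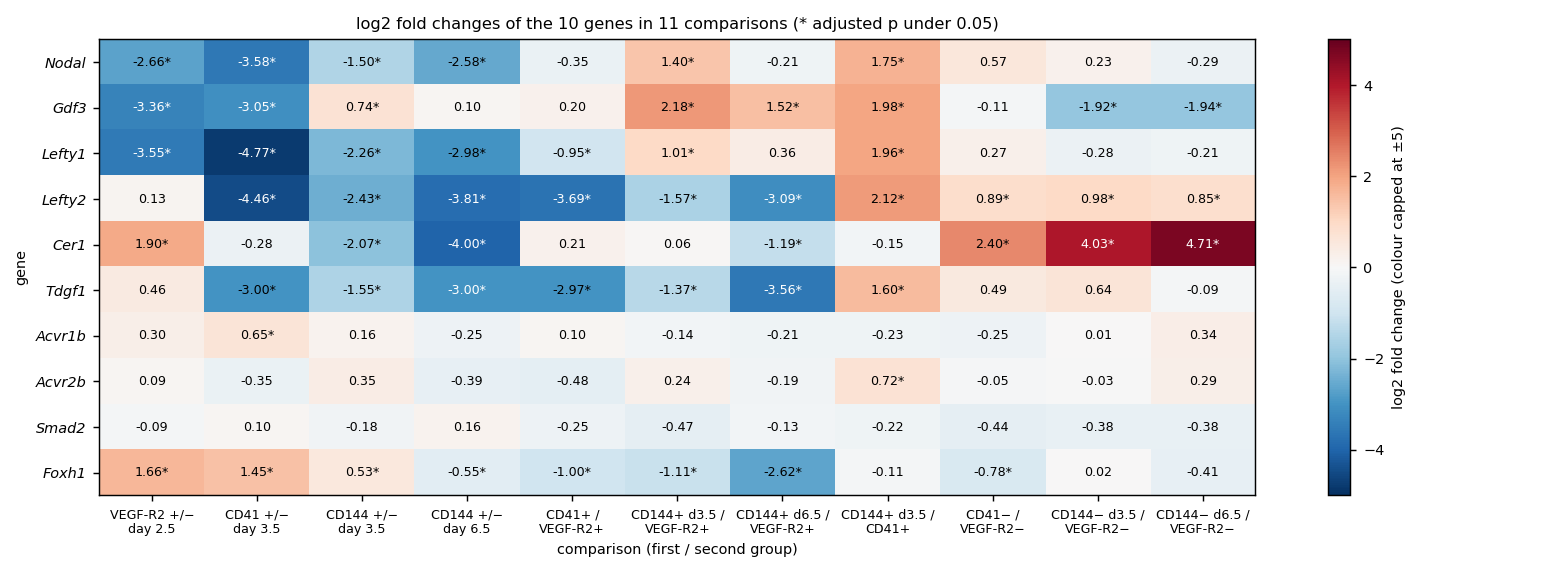
log2 fold changes of the 10 genes (rows) in 11 comparisons (columns), first group over second group, with red for higher, blue for lower and an asterisk for an adjusted p below 0.05. The Nodal and Lefty1 rows are negative in all 4 positive against negative columns, and the Cer1 row reaches 4.71 in day 6.5 CD144 negative cells against VEGF-R2 negative cells.

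The third question was whether a gene changes differently in positive and in negative cells, tested as the change from the VEGF-R2 population to a later one in positive cells minus that in negative cells. For the CD41 populations, Lefty1, Lefty2, Cer1 and Tdgf1 differed, 4 of 10 genes where 4.73% of all probe sets did, though the second Cer1 probe set did not pass. Lefty2 had the largest of these differences, -4.59 on the log2 scale (adjusted p = 2.44e-08), as it fell in positive and rose in negative cells. For CD144 at day 3.5, 7 of the 10 genes differed, against 5.30% of all probe sets. Nodal, Gdf3 and Lefty1 had positive differences and Lefty2, Cer1, Tdgf1 and Foxh1 negative ones, from -3.97 for Cer1 (adjusted p = 2.38e-06) to 4.10 for Gdf3 (adjusted p = 4.33e-07). The second Nodal probe set did not pass the test there. For CD144 at day 6.5, Gdf3 had a positive difference and Lefty2, Cer1, Tdgf1 and Foxh1 negative ones, 5 of 10 genes against 4.84%, and Cer1 reached -5.90 (adjusted p = 4.64e-08). The Nodal difference at day 3.5, 1.16 (adjusted p = 0.0308), missed the threshold under quantile normalization (adjusted p = 0.0692) and without VEGF-R2 positive replicate 1, either CD144 positive array, either VEGF-R2 negative array or either CD144 negative array (adjusted p = 0.0692 to 0.145). The Lefty1 difference for CD41, -1.22 (adjusted p = 0.0146), missed it without VEGF-R2 positive replicate 2, either VEGF-R2 negative array or either CD41 negative array (adjusted p = 0.0523 to 0.0778), and the Lefty1 difference for CD144 at day 3.5, 1.29 (adjusted p = 0.00896), did so without VEGF-R2 negative replicate 2 (adjusted p = 0.0525).

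**Figure D4:**
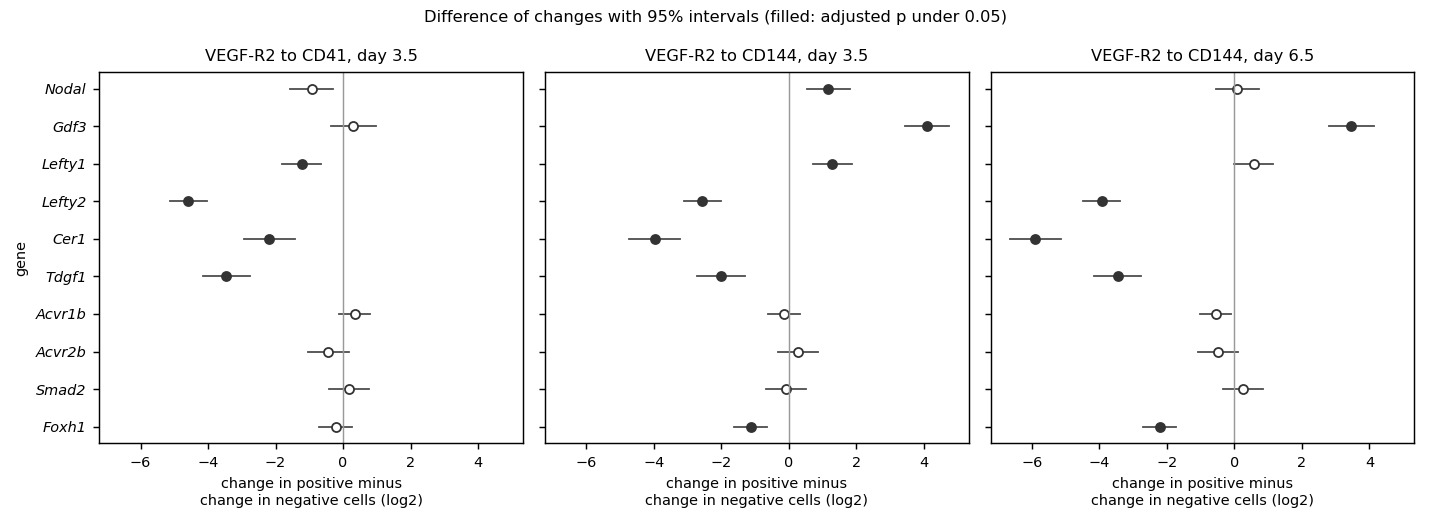
Change in positive cells minus change in negative cells (log2, horizontal axis) for the 10 genes, from the VEGF-R2 populations to the CD41, CD144 day 3.5 and CD144 day 6.5 populations, with 95% intervals and filled points for an adjusted p below 0.05. Lefty2, Cer1 and Tdgf1 lie left of 0 in all 3 panels, and Gdf3 lies right of 0 in the CD144 panels, at 4.10 and 3.46.

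Genes known as targets of Nodal signalling or markers of the primitive streak, 12 measured, differed by sort in opposite directions at day 2.5 and later. In VEGF-R2 positive cells 10 of the 12 were higher than in the negative cells and 0 lower, with a median log2 fold change of 1.47 beside 0.08 over all probe sets. In CD41 positive cells 7 were lower and 1 higher (median -1.5), in day 3.5 CD144 positive cells 10 were lower and 1 higher (median -2.31), and at day 6.5 9 were lower and 1 higher (median -1.88). Over all probe sets, 11.1% were higher and 13.8% lower in the VEGF-R2 sort, and 13.5% and 15.8% for CD41. For CD144 the shares were 9.49% and 10.5% at day 3.5, and 9.42% and 10.1% at day 6.5. The study itself picked some of the 12 genes, such as Mixl1 and Lhx1, from these arrays, so the counts are not independent evidence of direction. Nodal and Lefty1 were lower in the VEGF-R2 positive cells in which most of these genes were higher, and Lefty2 did not differ there.

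Eomes, a T-box factor of the streak, had 5611 and 5157 in VEGF-R2 positive and 1837 and 1566 in VEGF-R2 negative cells, and 938.8 and 905.1 against 5929 and 4995 for CD144 at day 3.5. Its log2 fold changes were 1.66 (adjusted p = 0.000232) and -2.55 (adjusted p = 5.77e-06). Mesp1, which marks early mesoderm, had 5677 and 5168 in VEGF-R2 positive against 485 and 320.5 in VEGF-R2 negative cells (log2 fold change 3.76, adjusted p = 6.3e-08). Pmepa1, an inhibitor induced by TGF-beta signals, had 842.8 and 865.8 against 353.1 and 352.7 (adjusted p = 0.00148) and was lower in the later positive populations than in their negative cells, with log2 fold changes of -1.86, -1.18 and -1.37. The Eomes, Mesp1 and Pmepa1 arrays did not overlap between sorts at day 2.5. Foxa2, an endoderm factor, rose in negative cells from 146.2 and 104.6 at day 2.5 to 1643 and 1820 in day 3.5 CD144 negative cells (log2 fold change 3.74, adjusted p = 4.86e-08), as Cer1 did. Hhex, a factor of both endoderm and blood vessel precursors, was the gene of the list that was higher in all 4 positive populations, with log2 fold changes of 1.29, 2.60, 0.67 and 0.97.

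Of 23 other measured genes of the pathway, 2 were higher and 5 lower in VEGF-R2 positive than negative cells, and 4 higher and 10 lower for CD41. For CD144, 3 were higher and 5 lower at day 3.5, and 1 higher and 6 lower at day 6.5. Over all probe sets, 11.1% were higher and 13.8% lower in the VEGF-R2 sort, and 13.5% and 15.8% for CD41. For CD144 these shares were 9.49% and 10.5% at day 3.5, and 9.42% and 10.1% at day 6.5. The median log2 fold changes of the 23 genes were -0.12, -0.44, -0.11 and -0.17, beside 0.08, 0.10, 0.10 and 0.07 over all probe sets. Without CD41 positive replicate 1 the CD41 counts were 4 and 7. Drap1, a corepressor that binds Foxh1, was higher in all 4 positive populations, with log2 fold changes of 0.68, 1.5, 1.4 and 1.31. Trim33, a ubiquitin ligase that acts on Smad complexes, was lower in all 4, at -1.36, -0.45, -0.76 and -0.83.

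Cfc1 (Cryptic), the other EGF-CFC coreceptor, had 765.2 and 858.7 in VEGF-R2 positive against 222.4 and 227.4 in VEGF-R2 negative cells (log2 fold change 1.82, adjusted p = 1.72e-06). In CD144 negative cells it stood at 1980 and 2229 at day 3.5 and at 1768 and 2169 at day 6.5. It was thus higher in positive cells at day 2.5 and lower in the later sorts, at -0.53, -1.31 and -1.34 on the log2 scale. Fst, which binds activins, had 7159 and 7235 in CD144 negative against 1061 and 947.1 in day 3.5 CD144 positive cells (log2 fold change -2.84, adjusted p = 8.88e-08). Acvr2a, a second type II receptor, was lower in the positive cells of the 3 later sorts, at -1.75, -1.32 and -0.63, unlike Acvr2b.

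Smad4, the common partner of the receptor-activated Smads, was lower in the positive cells of the 3 later sorts (log2 fold changes -0.91, -0.44 and -0.81). Smad3 did not pass the test in any sort, and rose from VEGF-R2 positive cells to day 6.5 CD144 positive cells (log2 fold change 0.99, adjusted p = 0.00149) and between the negative cells of those days (1.34, adjusted p = 0.000197). Acvr1c, which encodes ALK7, stayed at signals of 11.48 to 83.07 and passed no test. The proteases that cleave the Nodal precursor differed from each other. Furin was higher in CD41 positive cells (log2 fold change 1.01, adjusted p = 0.0064) and day 3.5 CD144 positive cells (0.78, adjusted p = 0.0416) than in the negative cells. Pcsk6 was lower in VEGF-R2 and CD41 positive cells (-2.42 and -1.30, adjusted p = 0.000509 and 0.0301) and rose between positive cells from 23.27 and 46.61 at day 2.5 to 165.4 and 297.7 in day 6.5 CD144 positive cells (adjusted p = 0.000548).

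**Figure D5:**
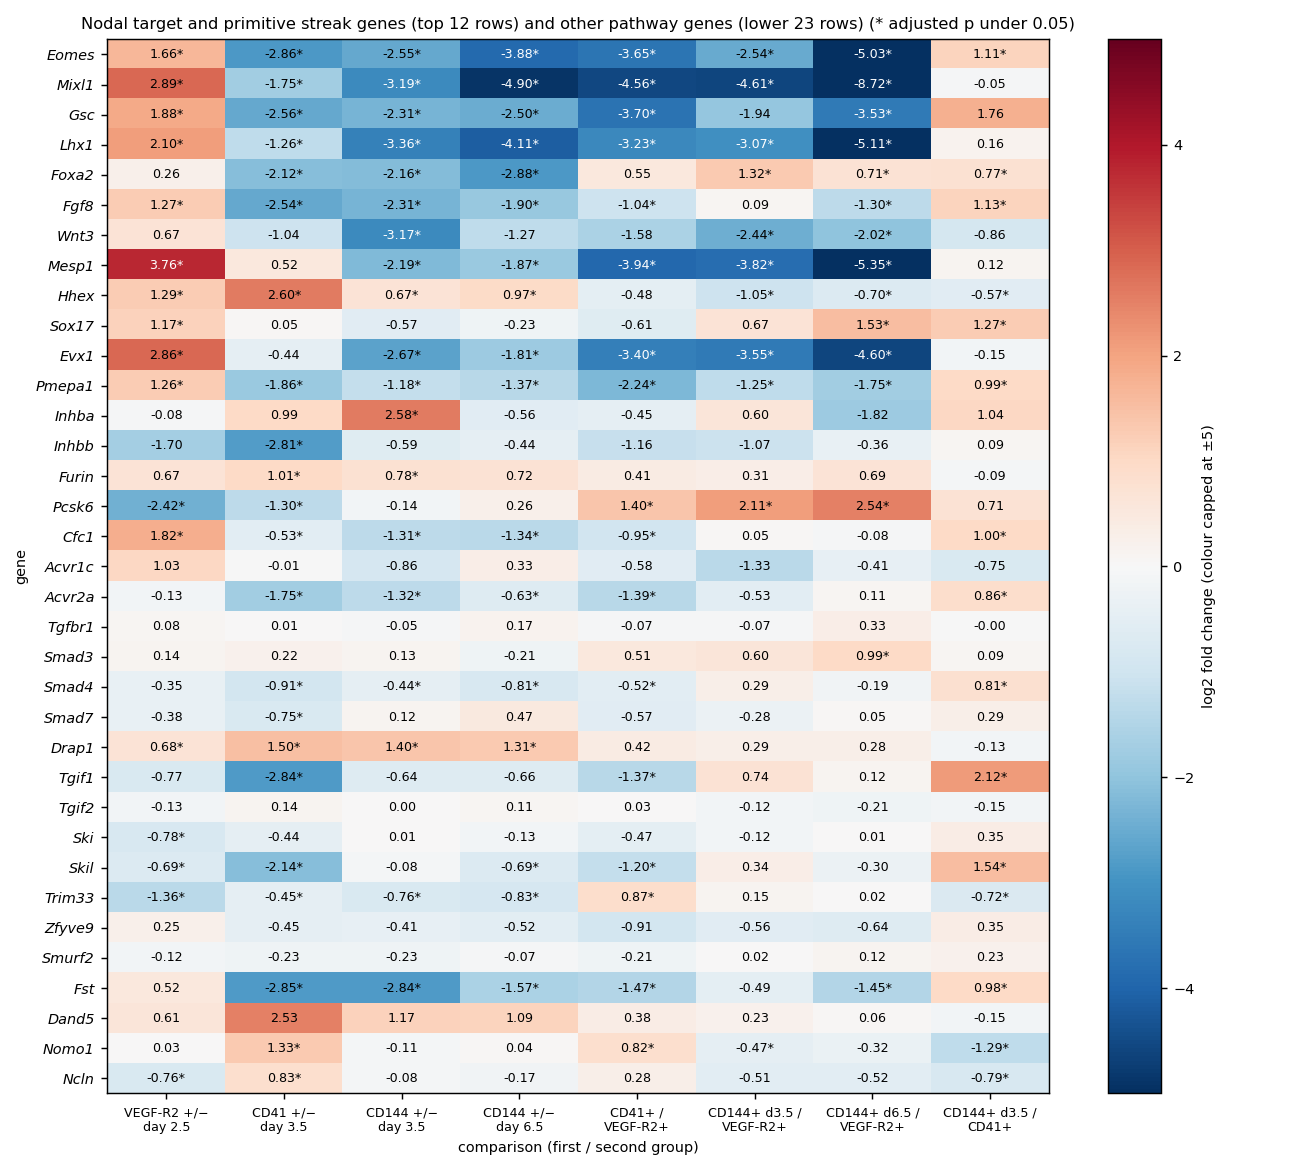
log2 fold changes of 12 Nodal target and primitive streak genes and 23 other pathway genes (rows) in 8 comparisons (columns), first group over second group, with red for higher, blue for lower and an asterisk for an adjusted p below 0.05. The target rows are mostly red in the VEGF-R2 column and blue in the other positive against negative columns, where Mixl1 reaches -4.90.

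Markers of other cells were measured beside these results. Of 9 endothelial markers, 7 were higher in VEGF-R2 positive cells and all 9 in the 3 later positive populations than in the negative cells, and of 8 blood markers all 8 were higher in CD41 positive cells. Cdh5, which encodes the sorting marker CD144, is 1 of the 9, and Itga2b, which encodes CD41, is 1 of the 8. The study also picked some of the others, such as Tie1 and Gata1, from these arrays, so the counts are not independent evidence. In the VEGF-R2 sort 3 of the 8 blood markers were higher and 1 lower. In the CD144 sorts 5 were higher and 0 lower at day 3.5, and 3 higher and 1 lower at day 6.5. The blood markers did not mark the positive cells at day 6.5, with a median log2 fold change of 0.12. Their sums there were 18704 and 20828 in CD144 positive and 19444 and 21816 in CD144 negative cells. Visceral endoderm markers, 13 in number, summed to 15035 and 17771 in the day 6.5 CD144 positive and to 6572 and 6149 in the day 6.5 CD144 negative cells, and to 1006 to 3261 in the other 6 populations. Most of the sum in the day 6.5 CD144 positive cells came from Ttr, at 6919 and 8700, and Rbp4, at 3718 and 4788. In the day 6.5 sort, where Cer1 was lower in the positive cells, 3 of the 13 were higher there and 1 lower, and in the earlier sorts 3, 1 and 3 were higher and 3, 3 and 2 lower. The 9 feeder fibroblast markers summed to 571.1 to 1501 at days 2.5 and 3.5 and to 3798 to 7820 at day 6.5, with at most 2 of the 9 higher and 3 lower in any sort. Over all probe sets, 9.42% to 13.5% were higher and 10.1% to 15.8% lower in these sorts. The part of endoderm or fibroblasts in the day 6.5 values was not tested.

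Over the 16 arrays, Nodal and Lefty1 had the most similar pattern of any pair of the 10 genes, with a Pearson r of 0.96 on log2 signals, and Lefty2 and Tdgf1 had 0.94. Gdf3 and Lefty2 had 0.37 and Gdf3 and Cer1 -0.27. These values describe arrays that come in pairs and share the split by sort, so no p is given. Among 11474 genes of above-median signal, those most like Nodal were Strbp (r = 0.992), Psip1 (0.988), Esrp1 (0.981), Herc4 (0.973) and G3bp2 (0.969). Most like Lefty1 were Gja1 (0.984), Vps4b (0.983), Apobec3 (0.981), Xpo1 (0.98) and Alms1 (0.98). Most like Tdgf1 were Ube2d2a (0.978), Eomes (0.969), Glce (0.965), Vrtn (0.963) and Cnksr3 (0.949), and most like Cer1 were Oip5os1 (0.9), Grn (0.885), Ifih1 (0.882), Atp8a1 (0.879) and Foxa2 (0.875).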

How the data were processed

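Sorted populations were profiled on Affymetrix Mouse Genome 430 2.0 arrays. The authors deposited MAS5 signals, an intensity per probe set on a linear scale, and the 2% trimmed mean of each array was close to 500. The paper describes dChip values, which were not used here. Of 45101 probe sets, 64 controls were left out. Samples were grouped by their labels. log2(signal + 6.02), the offset being the 10th percentile of all values, was fitted with limma 3.58.1 (R 4.3.3) over all 16 arrays with an intensity trend, with Benjamini-Hochberg adjustment over 45037 probe sets at 0.05. Fold changes are on this scale, which understates changes of low genes. Each gene is represented by its brightest single-gene probe set. All members, up to 5 called genes of a list by size and some pathway genes whatever their values were named, with the 5 genes most like each of Nodal, Lefty1, Tdgf1 and Cer1. Members and lists were chosen with earlier results of these data known. The fit was tested on simulated data. Figures were drawn with matplotlib 3.10.9 (Python 3.11.15).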

Additional observations from a re-analysis of the deposited data

Results flagged for a closer look

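For some genes the change from the VEGF-R2 populations to a later population differed between positive and negative cells, as the test of that difference in limma found (log2, positive minus negative). For the CD41 populations the differences were -1.22 for Lefty1 (adjusted p = 0.0146), -4.59 for Lefty2 (adjusted p = 2.44e-08), -2.18 for Cer1 (adjusted p = 0.00116) and -3.46 for Tdgf1 (adjusted p = 6.74e-06). For CD144 at day 3.5 they were 1.16 for Nodal (adjusted p = 0.0308), 4.10 for Gdf3 (adjusted p = 4.33e-07), 1.29 for Lefty1 (adjusted p = 0.00896), -2.56 for Lefty2 (adjusted p = 9.86e-06), -3.97 for Cer1 (adjusted p = 2.38e-06), -2.01 for Tdgf1 (adjusted p = 0.00115) and -1.13 for Foxh1 (adjusted p = 0.00639). For CD144 at day 6.5 they were 3.46 for Gdf3 (adjusted p = 4.99e-06), -3.94 for Lefty2 (adjusted p = 1.24e-07), -5.90 for Cer1 (adjusted p = 4.64e-08), -3.46 for Tdgf1 (adjusted p = 8.59e-06) and -2.21 for Foxh1 (adjusted p = 2.2e-05). The second Cer1 probe set did not pass the test for the CD41 populations, nor the second Nodal probe set for CD144 at day 3.5. All 3 families share the VEGF-R2 arrays.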

How the results depend on the processing

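Of 140 values (10 genes in 14 comparisons), 71 passed the test. Of these, 56 passed it under every alternative run and 15 failed it under at least 1, while 12 others passed it under at least 1. The alternatives were quantile normalization, offsets of 1 and 50, leaving out dim probe sets, a robust prior without trend, only the compared groups, a replicate block, the probe set of largest variance, each array left out and, added after seeing the data, a fit of positive or negative arrays alone. From VEGF-R2 to CD41 negative cells 3 genes passed, against 1 with the robust prior, 7 with only the compared groups, and 1 to 4 with 1 array left out (1 without either array of VEGF-R2 negative or of CD41 negative cells). To CD144 negative cells at day 3.5, 3 genes passed and 6 did with only the compared groups. The day 3.5 CD144 difference of changes counted 7 genes, and 4 with the robust prior. Smad2 at day 6.5 turned from 0.16 to -0.81 (log2, adjusted p = 0.0484) on its probe set of largest variance. The Foxh1 difference of changes for CD144 at day 3.5 missed the threshold on that choice (adjusted p = 0.0604) and with the robust prior (adjusted p = 0.0906). With the robust prior those of Nodal (adjusted p = 0.177) and Lefty1 (adjusted p = 0.108) for CD144 at day 3.5 missed it too. The Lefty1 difference of changes for CD41 likewise missed it there (adjusted p = 0.141). Replicate numbers did not pair the samples (r -0.17 to 0.153 over 28 pairs of populations, 2 above 0.1), and the replicate block moved only the CD41 difference of changes, from 4 to 5 genes, by adding Nodal (adjusted p = 0.0429). The cause was not tested for any of these. With 2 arrays a population, precision is limited.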
